A study of Rattus norvegicus with 22 samples.

Results

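Untreated 9L tumor was compared with untreated contralateral brain in 5 rats, on 10 of the 22 arrays of the series. The 10 arrays were chosen by their labels alone: 5 untreated tumor arrays and 5 untreated contralateral arrays, with 1 array of each tissue from rats 1 to 5. All 5 animals were male Fischer rats, 8 weeks old at arrival, and each carried a tumor grown from 9L cells injected into the right caudate nucleus. Irradiation in the series was given on day 10 after implantation, and these 5 rats received none. The other 12 arrays came from 6 rats given microbeam radiation therapy (MRT), at 400 Gy in the beam paths and 18 Gy in the valleys between them, 6 hours before sampling. They were used here only where that is stated.

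9L is a cultured line from a chemically induced brain tumor of a Fischer rat, so the host is of the same strain. The labels call the line glioblastoma, and it is also widely known as gliosarcoma, a glioma with mesenchymal features. Such tumors join rapid division with a collagen-rich matrix, and their tissue holds host macrophages, vessels and remnants of brain beside the implanted cells. The caudate nucleus, part of the striatum, is built mainly of GABA neurons that carry dopamine D1 or D2 receptors, while the cortex above it is rich in glutamatergic neurons. Tissue was taken by micropunch from frozen coronal sections, so each array read a mixture of cells. In such bulk samples fewer cells of a type and less RNA per cell cannot be told apart. The contralateral brain also came from tumor-bearing animals and is not the brain of a healthy rat.

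Values are array signals in arbitrary units, or differences between tumor and brain of the same rat on the log2 scale, given with their standard error over 5 rats. A probeset, the set of probes that reads 1 transcript, was called higher or lower in tumor where limma, with the rat as a block, gave an adjusted p under 0.05 over all 31042 probesets. Lists of genes use the brightest probeset of each gene. Signals under 58 lie in the lowest 25 percent of all values and carry no detection call here. Where the brain mean was that low, the size of an increase rests on a signal near background.

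The tissues differed at 51.4% of probesets and at 58.6% of genes. Of the 31042 probesets, 6959 were higher in tumor (22.4%) and 8982 were lower (28.9%), and 2941 (9.47%) and 2672 (8.61%) differed by over 2-fold. Of 13697 genes, 4145 were higher (30.3%) and 3878 lower (28.3%), of which 1828 (13.3%) and 1167 (8.52%) differed by over 2-fold, with a median difference of −0.06. The increases reached much further than the decreases, with a range over probesets from −3.65 to 7.66. For 36.4% of probesets the 5 tumors and the 5 brains did not overlap. In the 6 irradiated rats, which are other animals, 2882 of the 2941 probesets and 2648 of the 2672 were called in the same direction, against 25.1% and 33.4% of all probesets called in these directions there. The size of the difference between tumor and brain was itself called different between irradiated and untreated rats at 0.66% of probesets.

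Tumor arrays varied more than brain arrays. Correlations between 2 brains were 0.979 to 0.996 and between 2 tumors 0.965 to 0.994, and between tumor and brain 0.88 to 0.949. On the first principal component, which held 76% of the variance, the brains lay between 73.6 and 82.3. The tumors of rats 1, 2 and 3 lay at −111.6, −89.5 and −92.9, that of rat 4 at −58.6 and that of rat 5 at −34.8, nearest to the brains. The gap between the 3′ and 5′ probesets of the labelling controls, bacterial RNAs added to each sample before labelling, was larger in tumor than in brain in all 5 rats (1.02 to 2.37 and 0.76 to 1.4 on the log2 scale). With this gap as a covariate, 1293 probesets were higher and 478 lower, and its part in the differences was not tested further. In both tissues the gap was smaller in rats 1 and 5 (1.19 and 1.02 in tumor, 0.77 and 0.76 in brain). In rats 2, 3 and 4 it was 2.13 to 2.37 in tumor and 1.27 to 1.4 in brain. The study took its arrays from 2 experimental sessions. The labels do not give the session of each array, so differences between sessions and between rats could not be separated.

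**Figure D1:**
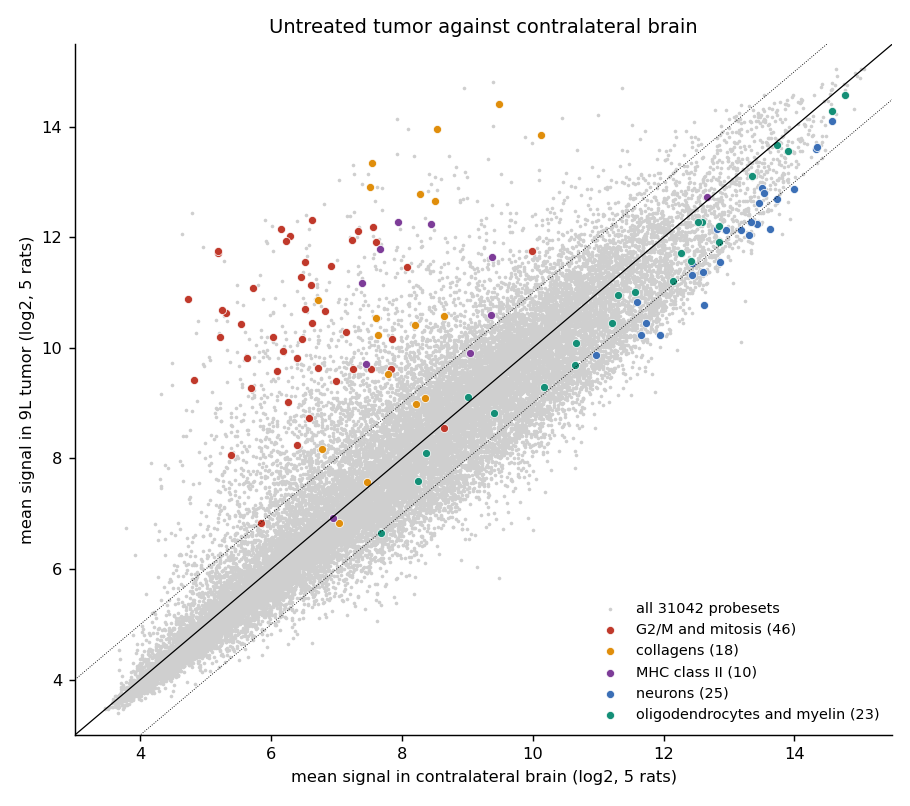
Mean log2 signal of 31042 probesets in contralateral brain (x axis) and in untreated 9L tumor (y axis), 5 rats each, with the genes of 5 lists in color. The solid line marks equal signal and the dotted lines a 2-fold difference. Mitosis and collagen genes lie far above the line, neuronal genes below it at high signals, and most myelin genes close to it.

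The largest increases included genes of matrix turnover, division and mesenchymal identity. Mmp3 (1368657_at), the secreted protease stromelysin, had signals of 25, 27, 31, 23 and 34 in the brains of rats 1 to 5 and of 7977, 5986, 5133, 4675 and 4861 in their tumors. The brains were at background and every tumor was bright, and the difference was 7.66 ± 0.17 (adjusted p = 4.7e-07, limma). Cdkn2a (1369194_a_at), the locus of the cell cycle inhibitors p16 and Arf, had brain signals of 30, 29, 29, 38 and 30 and tumor signals of 5754, 4683, 5214, 3657 and 1257. Its tumors did not overlap the brains either, but the tumor of rat 5 stood at the low end, and the difference was 6.88 ± 0.30 (adjusted p = 4.4e-06). Lox, the enzyme that crosslinks collagen, differed by 6.31 ± 0.15, and by 5.73 ± 0.23 at its brightest probeset. Prrx2 and Twist1, transcription factors of mesenchyme, differed by 6.41 ± 0.28 and 6.19 ± 0.23, with tumor signals of 2071 to 8645 and 2417 to 7429. Spp1, the secreted phosphoprotein osteopontin, had tumor signals of 14000, 9569, 5997, 7168 and 19064 against 90 to 248 in brain, and here the tumor of rat 5 was the highest (6.06 ± 0.15). S100a11, a calcium-binding protein, rose from 188 to 424 in brain to 14991 to 21341 in tumor (6.22 ± 0.17). Ect2, Mki67, Ccna2 and Cks2, all genes of division, differed by 6.57, 6.54, 6.17 and 6.01, and MGC114427, an array symbol with no role given here, by 7.44 ± 0.24. In all 12 genes the groups were apart.

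The 12 largest decreases were smaller than the 12 largest increases. Ppp3r1 (1369152_at), the regulatory subunit of the phosphatase calcineurin, had brain signals of 595, 819, 724, 740 and 734 and tumor signals of 71, 21, 50, 39 and 212. Every tumor lay below every brain, with rat 5 the highest of the tumors (−3.65 ± 0.43, adjusted p = 0.00036). A brighter probeset of the gene, 1372982_at, differed by −1.05 ± 0.13. Rasgrp1, an activator of Ras in neurons, differed by −3.30 ± 0.30, Nts, the peptide neurotensin, by −3.12 ± 0.37, and Neurod1, a transcription factor of glutamatergic neurons, by −3.0 ± 0.28. The other 8 were Scd, Abhd8, Zbtb18, Pnma8b, Tmem215, Syn2, Vps41 and Cpne4, from −2.81 to −2.58. Of these, Scd, a desaturase of fatty acid synthesis, was read differently by its other probesets, the brightest of which (1367668_a_at) differed by −0.28 ± 0.11 and was not called. Brighter probesets also gave smaller decreases for Vps41 (1373145_at, −0.73 ± 0.16), Abhd8 (1393197_at, −1.24 ± 0.18) and Pnma8b (1373985_at, −1.19 ± 0.18). The same held for Syn2 (1370431_at, −1.72 ± 0.23) and Rasgrp1 (1369130_at, −2.51 ± 0.29). In 10 of the 12 the tumor of rat 5 had the highest signal of the 5 tumors, and Pnma8b was the only one of the 12 whose groups overlapped.

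**Figure D2:**
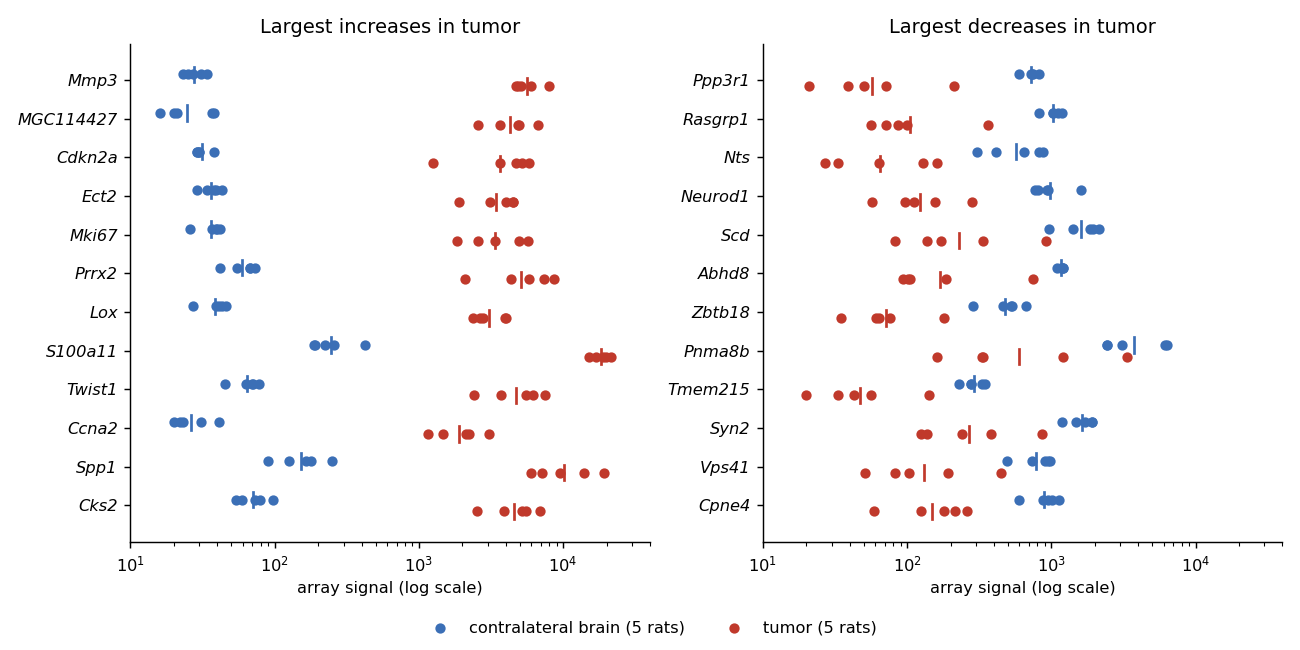
Array signal (log axis) of the 12 probesets with the largest increases and the 12 with the largest decreases, 1 point per rat in contralateral brain (blue) and tumor (red), with a vertical line at the mean of log2 signals. Increases start from brain signals of 16 to 424, while decreases end in tumors at 20 to 3359.

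Genes of cell division were higher in tumor nearly throughout. Of 46 measured genes of G2/M and mitosis, 45 were higher in tumor, against 30.3% of all genes, with a list median of 4.19. The exception, Kif20a (named after its values were seen), differed by −0.09 at its brightest probeset (1373246_at) and by 5.34 at the other (1373722_at). Mki67, the marker of cycling cells, had brain signals of 26, 37, 39, 42 and 40 and tumor signals of 5679, 4932, 2559, 3342 and 1831. Ect2, needed for the furrow that parts daughter cells, had brain signals of 39, 29, 34, 43 and 38 and tumor signals of 4510, 4459, 4035, 3096 and 1904. In both genes the brains were at background and rat 5 had the dimmest tumor. Of 44 genes of DNA replication 44 were higher (median 2.11), among them Rrm2, the ribonucleotide reductase subunit (5.88 ± 0.17), Ccnd1, which starts the cycle (4.76 ± 0.17), Uhrf1, which keeps DNA methylation through replication (4.45 ± 0.25), and Mcm6 of the replicative helicase (4.23 ± 0.17). Of 19 DNA repair genes 17 were higher (median 1.29). The tumor of rat 5 was the lowest of the 5 in 45 of the 46 mitosis genes and 42 of the 44 replication genes, and that of rat 1 the highest in 32 and 29. With the labelling control gap as a covariate 36 of the mitosis, 15 of the replication and 6 of the repair genes were called higher.

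The upstream sequences of the leading mitosis genes are shown because these genes moved together and are known to share short elements. The CCAAT box is bound by NF-Y and the CHR element by the MuvB complexes, which hold mitotic genes silent outside the cycle. In the RefSeq table (build GRCr8), 39 of the 46 mitosis genes had a promoter entry. In the 250 bases before the start, CCAAT or its reverse complement ATTGG stood in 76.9% of them and in 34.3% of all 27457 promoters. TTTGAA, its reverse complement TTCAAA, or TTCGAA stood in 59.0% of them and in 17.3% of all. Both stood in 53.8% and in 6.22%, while for the replication genes (35 with an entry) both stood in 11.4%. The stretches below run 5′ to 3′ on the gene's strand and end at the base before the start, with CCAAT and CHR matches in capitals. They come from Ect2 at chr2:111966627-111966876, Mki67 at chr1:199952594-199952843 and Cks2 at chr17:13727520-13727769, each on the minus strand. Ccna2 is named only.
Ect2: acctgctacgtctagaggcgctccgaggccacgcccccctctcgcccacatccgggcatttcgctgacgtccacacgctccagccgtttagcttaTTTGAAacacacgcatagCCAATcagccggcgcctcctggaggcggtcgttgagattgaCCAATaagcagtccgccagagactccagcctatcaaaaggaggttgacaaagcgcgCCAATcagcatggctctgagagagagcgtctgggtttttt
Mki67: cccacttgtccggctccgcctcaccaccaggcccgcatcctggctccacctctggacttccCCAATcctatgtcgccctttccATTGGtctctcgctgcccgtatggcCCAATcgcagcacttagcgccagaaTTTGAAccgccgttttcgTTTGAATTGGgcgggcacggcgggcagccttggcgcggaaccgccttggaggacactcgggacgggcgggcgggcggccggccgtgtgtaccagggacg
Cks2: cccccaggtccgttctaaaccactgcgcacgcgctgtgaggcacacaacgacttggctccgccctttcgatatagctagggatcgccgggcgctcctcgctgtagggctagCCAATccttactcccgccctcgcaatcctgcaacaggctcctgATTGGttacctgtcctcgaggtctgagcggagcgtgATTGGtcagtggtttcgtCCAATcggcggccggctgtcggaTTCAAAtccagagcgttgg
Ect2 held 3 CCAAT and 1 CHR match, Mki67 4 and 2, of which 1 of each overlap, and Cks2 4 and 1. A match in this window is a description of the letters and not of binding.

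Genes of the glioma and stem cell list moved less uniformly. Of 29 measured, 17 were higher and 4 lower, with a median of 0.92. Ezh2, the histone methyltransferase of Polycomb, differed by 3.85 ± 0.21, Cdk4, the kinase that p16 inhibits, by 3.12 ± 0.17, and Myc by 3.12 ± 0.21. Pdgfra, a growth factor receptor of glial precursors and mesenchyme, had brain signals of 1785, 2550, 2116, 2295 and 2148 and tumor signals of 11800, 12148, 10951, 9207 and 5535. The groups were far apart and the difference was 2.14 ± 0.18. Id3, an inhibitor of differentiation factors, differed by 2.90 ± 0.24 and Nes, the filament nestin, by 1.08 ± 0.11. Hmga1, a chromatin protein of dividing cells, was lower (−1.02 ± 0.16), as was Prom1, the stem cell surface protein CD133 (−0.63 ± 0.16).

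Genes of connective tissue matrix were higher in tumor as a block. Of 18 collagen genes 16 were higher in tumor (median 2.78), and 0 were lower. Col3a1, the fibrillar collagen of soft tissue, had brain signals of 874, 789, 833, 613 and 555 and tumor signals of 24434, 22815, 23409, 18917 and 20128. The groups were wide apart (4.92 ± 0.10, adjusted p = 4.7e-07), and the spread among the tumors was small. Col18a1, a basement membrane collagen, differed by 5.80 ± 0.21 and Col5a2 by 5.41 ± 0.14. Of 29 matrix glycoproteins and collagen enzymes 26 were higher (median 3.20), with Tnc, the glycoprotein tenascin-C of gliomas and wounds, at 5.81 ± 0.32. Of 27 proteases and inhibitors 18 were higher and 4 lower. Mmp13, a collagenase, differed by 4.71 ± 0.23, Mmp2, a gelatinase, by 4.33 ± 0.29 and Timp1, the secreted inhibitor of these proteases, by 5.98 ± 0.16. Of 25 mesenchymal genes 24 were higher (median 2.71). S100a4, a calcium-binding protein of fibroblasts and motile tumor cells, had brain signals of 338 to 645 and tumor signals of 20389 to 29544 (5.75 ± 0.19). Cdh11, a cadherin of mesenchyme, was the 1 mesenchymal gene that was lower (−0.45 ± 0.11). The matrix of brain went the other way, with 9 of 12 genes lower (28.3% of all genes) and 0 higher, led by Hapln4, a link protein of nets around neurons (−1.66 ± 0.21), and Spock2, a brain proteoglycan (−1.64 ± 0.26). The count called lower was 0 of 12 with the labelling control gap as a covariate.

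Genes of neurons were lower in tumor, by modest folds and far from lost. Of 25 general neuronal genes 25 were lower, against 28.3% of all genes, with a median of −1.08. The summed signal of the 25 was 90694 to 172006 in the tumors and 218724 to 263944 in the brains, or 36.0% to 78.6% of the brain of the same rat, so every brain lay above every tumor. Syn1, a protein of synaptic vesicles, had brain signals of 6249, 5084, 7919, 7685 and 5195 and tumor signals of 1496, 1188, 1536, 1654 and 3628. The groups did not overlap (−1.85 ± 0.26, adjusted p = 0.00072), and rat 5 kept the highest tumor signal. Rbfox3, the nuclear antigen NeuN, fell by 1.43 ± 0.23 and Nrgn, a postsynaptic calmodulin-binding protein, by 1.47 ± 0.30, in the latter with overlap since the tumor of rat 5 (10348) was above its own brain (9779). Snap25 (named after its values were seen), a SNARE protein and 1 of the brightest, had 21621 to 26662 in brain and 13740 to 21418 in tumor (−0.48 ± 0.14, adjusted p = 0.023), and was not called without rat 1, 2 or 3 (adjusted p = 0.066, 0.066 and 0.082). With the labelling control gap as a covariate 0 of the 25 were called. Standard errors can be wider in that fit (Nrgn 0.10 ± 0.51), so for neuronal genes it does not separate tissue from this gap.

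The machinery of synapses followed. Of 33 genes of synaptic vesicles and SNARE proteins 31 were lower, of 61 neurotransmitter receptors 53, and of 35 voltage-gated channels 32, and 0 genes of these 3 lists were higher. The counts called lower with the labelling control gap as a covariate were 1, 7 and 1. Gabra4, a subunit of GABA-A receptors, differed by −2.33 ± 0.27, Grin2a, a subunit of NMDA receptors, by −2.24 ± 0.21, and Cacng3, an auxiliary subunit of AMPA receptors and calcium channels, by −2.14 ± 0.36. Of 13 genes of glutamatergic cortical neurons 12 were lower (median −1.32). Slc17a6 and Slc17a7, the transporters that load glutamate into vesicles, differed by −2.19 ± 0.17 and −2.06 ± 0.29, and Neurod6, a transcription factor of these neurons, by −1.99 ± 0.20. Slc17a7 had brain signals of 655, 629, 923, 999 and 681 and tumor signals of 194, 104, 159, 149 and 433, with no overlap. Etv1, a transcription factor of layer 5 neurons that is not restricted to them, was the 1 gene of the list that was higher (0.79 ± 0.14). Of 14 interneuron genes 11 were lower, among them Gad2, an enzyme that makes GABA (−2.19 ± 0.22), and Vip, a peptide of interneurons (−1.88 ± 0.26). Called lower with the labelling control gap as a covariate were 2 of the glutamatergic and 0 of the interneuron genes.

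Of 22 genes of striatal projection neurons 5 were lower (22.7%, against 28.3% of all genes) and 1 higher, with a median of −0.38, and 16 did not pass the test. Their difference from the other neuronal lists was not tested. Drd1, the D1 dopamine receptor, had brain signals of 325, 573, 1147, 510 and 590 and tumor signals of 149, 1542, 2748, 820 and 303. Drd2, the D2 receptor, had 136, 238, 722, 214 and 172 in brain and 71, 545, 1070, 290 and 133 in tumor. Adora2a, the adenosine receptor of D2 neurons, had 137, 268, 1216, 238 and 215 in brain and 79, 739, 1805, 399 and 232 in tumor. These 3 genes, named after their values were seen, were higher in the tumors of rats 2, 3 and 4 than in their brains and lower in that of rat 1, and none passed (adjusted p = 0.61, 0.61 and 0.24, limma, n = 5 pairs). Leaving out rat 2 turned the sign of Drd1 and Drd2 (−0.04 and −0.08), and leaving out rat 1 brought Adora2a past the test (0.72, adjusted p = 0.024). With array weights all 3 were called higher (0.90, 0.69 and 0.93, adjusted p = 0.027, 0.031 and 0.0091), while with the labelling control gap as a covariate Drd1 was called lower (−2.16, adjusted p = 0.038). Penk, the enkephalin precursor, was higher in tumor in all 5 rats, with 1579, 2697, 8049, 2591 and 2082 in brain and 9344, 11644, 14747, 8320 and 3330 in tumor (1.58 ± 0.27, adjusted p = 0.0018). In rat 1, whose tumor had the lowest Drd1 and Drd2, Penk was 9344, above the highest brain (8049). Arpp21, a phosphoprotein of these neurons, was lower (−1.24 ± 0.39), at −0.73 without rat 1 and not called without rat 4.

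The striatal signal differed between rats in both tissues, and how its spread divides between rat and tissue was not tested. The tumor of rat 3 was the highest of the 5 in 22 of the 22 striatal genes, and that of rat 1 the lowest in 18. The list median by rat was −1.26, 0.42, 0.16, 0.07 and −0.47 for rats 1 to 5. The contralateral brain of rat 3 was also the highest brain for Drd1, Drd2, Adora2a and Penk. The summed striatal signal was 28270 to 30051 in the other 4 brains and 52966 in that of rat 3. In the tumors it was 19045, 41093, 62716, 29861 and 22298. Without rat 1, 3, 4 or 5 the 5 genes called lower became 3, 3, 2 and 3.

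**Figure D3:**
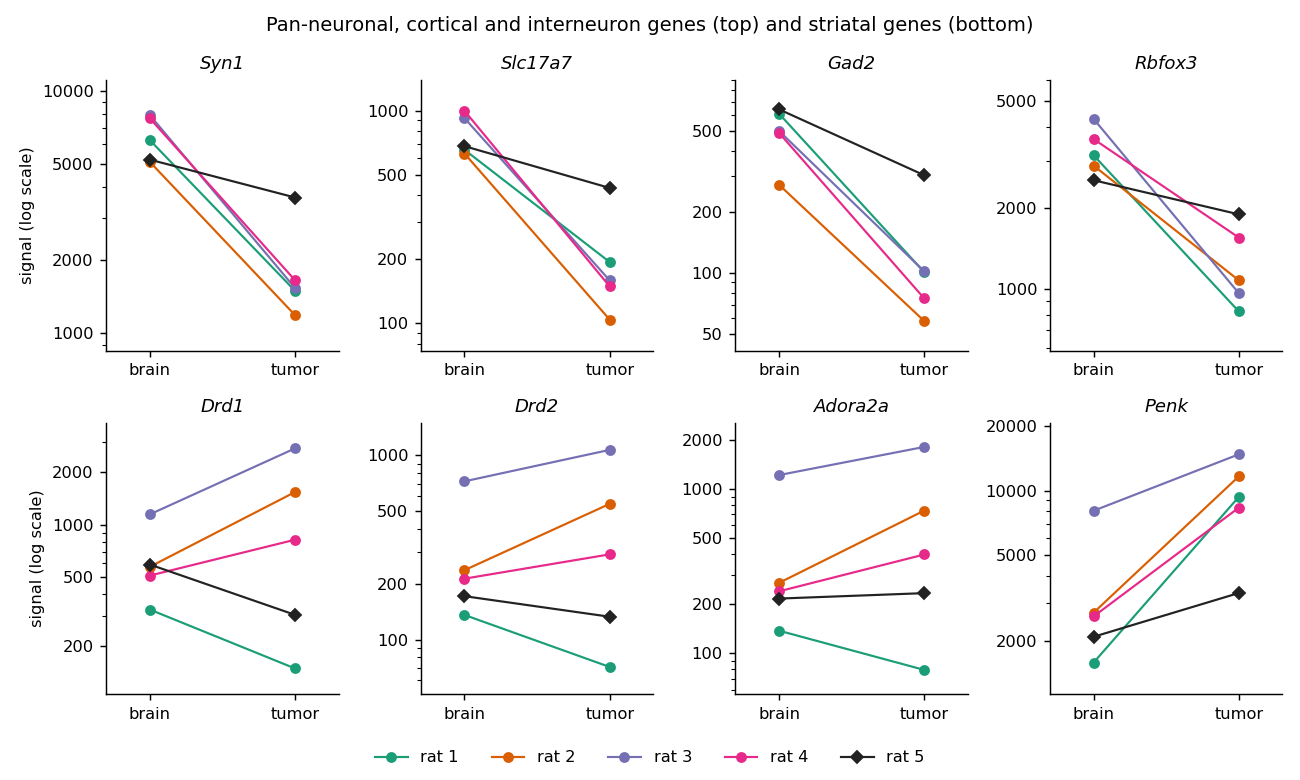
Array signal (log axis) in contralateral brain and tumor of each of 5 rats, joined by a line, for 4 general, cortical and interneuron genes (top) and 4 striatal genes (bottom). The top genes fall from brain to tumor in each rat, least in rat 5, while Drd1, Drd2 and Adora2a rise in rats 2, 3 and 4 and fall in rat 1, and Penk rises in all 5.

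Myelin genes were lower by small amounts. Of 23 oligodendrocyte genes 14 were lower and 0 higher (median −0.56), and only 1, Gpr37, had groups that did not overlap (−0.93 ± 0.16), against 43.6% of all genes. Mbp, a main protein of myelin (named after its values were seen), had brain signals of 26700, 30679, 28303, 30191 and 24922 and tumor signals of 17655, 25444, 23722, 29017 and 27488. Both tissues were near the top of the signal range, their values overlapped, and the gene was not called at this probeset (1368810_a_at, −0.21 ± 0.12, adjusted p = 0.19, limma). A dimmer probeset of Mbp, 1387341_a_at, was lower by −1.74 ± 0.40 (adjusted p = 0.0073), and with the mean of both the gene was called lower (−0.97, adjusted p = 0.009), as it was with array weights (−0.24, adjusted p = 0.049). Opalin, another myelin protein, differed by −0.95 ± 0.18. The tumor of rat 1 was the lowest of the 5 in 23 of the 23 genes, and that of rat 4 the highest in 18. Without the rat as a block 7 of the 23 were called lower, and with the labelling control gap as a covariate 0. Of 10 oligodendrocyte precursor genes 3 were higher, close to the 30.3% of all genes, and 4 lower, against 28.3% (median −0.14). Cspg4, the proteoglycan NG2 of precursors and pericytes, was among those higher (1.15 ± 0.14), as was Pdgfra.

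Genes of resting and of reactive astrocytes parted. Of 23 astrocyte genes 17 were lower and 2 higher (median −0.74), and of 18 genes of reactivity 16 were higher and 0 lower (median 1.93). Slc25a18, a mitochondrial glutamate carrier, and Agt, angiotensinogen, differed by −1.72 ± 0.24 and −1.63 ± 0.18. Gfap, the filament of astrocytes, had brain signals of 3313, 7682, 7783, 7444 and 5677 and tumor signals of 12069, 11107, 11652, 13468 and 18898. It was higher in all 5 tumors with no overlap (1.11 ± 0.22, adjusted p = 0.0038). Vim, the filament vimentin of reactive glia and of mesenchyme, rose from 2278 to 3301 in brain to 22044 to 29827 in tumor (3.33 ± 0.10), and Emp1, a membrane protein, by 4.73 ± 0.15. Vim and Timp1, both in this list, are known from mesenchymal cells too. With the labelling control gap as a covariate 14 of the reactivity genes were called higher and 0 of the astrocyte genes lower. Gja1, the connexin of astrocytes, was split between probesets: the brightest (1372002_at) differed by 0.56 ± 0.09 and 1369640_at by −1.26 ± 0.39, both called.

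Macrophage and antigen presentation genes were higher in tumor, most of all in rat 5. Of 28 macrophage and monocyte genes 20 were higher and 0 lower (median 1.65). Gpnmb, a glycoprotein of lipid-laden macrophages, had brain signals of 264, 395, 437, 346 and 359 and tumor signals of 2033, 2203, 2423, 1829 and 13359. All tumors were above all brains, and that of rat 5 was far above the other tumors (3.10 ± 0.39, adjusted p = 0.0005). Lgals3, the lectin galectin-3, had brain signals of 163 to 313 and tumor signals of 2025, 2089, 2525, 2615 and 10642, with rat 5 again far above the rest (3.73 ± 0.31). Cd14, the coreceptor for bacterial lipopolysaccharide, and Fcgr3a, an Fc receptor, differed by 3.36 ± 0.34 and 2.58 ± 0.13. Of 10 MHC class II genes 8 were higher and 0 lower (median 2.26). Cd74, the invariant chain, had brain signals of 325, 416, 439, 249 and 343 and tumor signals of 4572, 3786, 4549, 3585 and 9422 (3.80 ± 0.21), and RT1-Da, a class II chain, differed by 4.34 ± 0.17. The tumor of rat 5 was the highest in 28 of the 28 macrophage genes and 10 of the 10 class II genes. The median of the macrophage list was 2.64 in rat 5 and 1.31 to 1.46 in the other 4 rats. That of the class II list was 3.15 in rat 5 and 1.77 to 2.54 in the others.

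Markers of resting microglia gave a mixed picture. Of 12 measured, 4 were higher (33.3%, against 30.3% of all genes) and 1 lower (median 0.17). P2ry12, the ADP receptor of resting microglia, had brain signals of 266, 318, 403, 402 and 330 and tumor signals of 246, 164, 260, 254 and 810 (−0.21 ± 0.30, adjusted p = 0.57). Without rat 5 it was lower in tumor (−0.59, adjusted p = 0.013). Cx3cr1, the fractalkine receptor, differed by −0.01 ± 0.18, with 468 in the tumor of rat 5 and 233 to 277 in the others (both genes named after their values were seen). Tmem119 and Olfml3, used as microglial markers in brain, had tumor signals of 10164, 8726, 9759, 5720 and 2690 and of 7149, 5458, 5945, 3549 and 2699, against 423 to 623 and 140 to 224 in brain. They differed by 3.71 ± 0.23 and 4.85 ± 0.19 and were lowest in the tumor of rat 5. Both are also known from mesenchymal cells outside the brain, and which cells gave their signal was not tested. Mertk, a receptor for the uptake of dying cells, was lower (−0.80 ± 0.16).

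Interferon-stimulated genes were higher as a group. Of 25 measured 21 were higher and 0 lower (median 1.67), and the tumor of rat 5 was the highest in 22. Mx1, an antiviral GTPase, had brain signals of 33, 34, 31, 49 and 44 and tumor signals of 215, 383, 301, 206 and 2261 (3.45 ± 0.44, adjusted p = 0.00054). Gbp2, a guanylate-binding protein, was even between tumors, with 69, 117, 128, 73 and 106 in brain and 2442, 3068, 2308, 2288 and 3006 in tumor (4.77 ± 0.15). Isg15, a ubiquitin-like protein, and Ifitm3, a block to virus entry, differed by 3.02 ± 0.27 and 2.80 ± 0.23. Of 16 genes of MHC class I and the immunoproteasome 11 were higher, among them Psmb9 and Psmb8, its catalytic subunits (4.22 ± 0.13 and 3.77 ± 0.12). These did not follow rat 5, whose tumor had the lowest Psmb9 and Psmb8 (2492 and 1734, against 2573 to 4113 and 1793 to 2572).

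The promoters of 2 of these genes are shown because their windows hold the interferon-stimulated response element, which STAT and IRF factors bind. Its core, searched on both strands as GAAA, any 2 bases and GAAA again, stood in 61.1% of the 18 interferon genes with an entry and in 50.0% of 14 class I and immunoproteasome genes, against 3.29% of all promoters. The 250 bases before the start of Gbp2 (chr2:234005477-234005726, plus strand) and of Ifitm3 (chr1:205541759-205542008, minus strand), from RefSeq on GRCr8, have the match in capitals.
Gbp2: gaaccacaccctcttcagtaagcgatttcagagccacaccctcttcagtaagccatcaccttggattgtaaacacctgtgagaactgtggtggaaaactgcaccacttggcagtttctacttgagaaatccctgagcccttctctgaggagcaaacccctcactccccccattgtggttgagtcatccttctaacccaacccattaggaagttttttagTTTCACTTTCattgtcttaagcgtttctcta
Ifitm3: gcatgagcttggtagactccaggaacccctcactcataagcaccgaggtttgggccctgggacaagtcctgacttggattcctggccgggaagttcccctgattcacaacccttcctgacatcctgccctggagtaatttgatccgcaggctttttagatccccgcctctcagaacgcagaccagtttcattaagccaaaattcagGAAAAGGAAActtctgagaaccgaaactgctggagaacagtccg
Mx1 held no such match in its window, and Isg15 is named only.

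Chemokines and lymphocyte genes were less uniform. Of 26 chemokine genes 10 were higher (38.5%, against 30.3% of all genes) and 4 lower (15.4%, against 28.3%), with a median of 0.44. Ccl2, which draws monocytes, had brain signals of 34, 34, 42, 48 and 45 and tumor signals of 817, 923, 928, 542 and 2638 (4.64 ± 0.28). Cxcl10, which draws T cells, had 44, 30, 60, 45 and 49 in brain and 191, 265, 285, 211 and 1473 in tumor (2.93 ± 0.39). In both the brains were at or near background and rat 5 had the brightest tumor. Ccl27 and Cxcl14, chemokines that brain also makes, were lower (−1.36 ± 0.18 and −1.26 ± 0.18). Of 25 T and NK cell genes 6 were higher, a share below the 30.3% of all genes, and 1 was lower. Signals were low: Gzma, a granule protease, had 23 to 32 in brain and 216, 216, 170, 143 and 74 in tumor (2.52 ± 0.23). Cd3g, a T cell receptor chain, had 50 to 78 and 109 to 242 (1.01 ± 0.16), and Cd8a 31 to 45 and 52 to 87 (0.88 ± 0.18). Of 5 B cell genes 0 were called. Of 10 neutrophil genes 3 were higher, close to the share of all genes. Under cyclic loess 14 T and NK cell genes were called higher, and with signals under 58 set to 58 only 3 of them and 0 of the neutrophil genes.

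**Figure D4:**
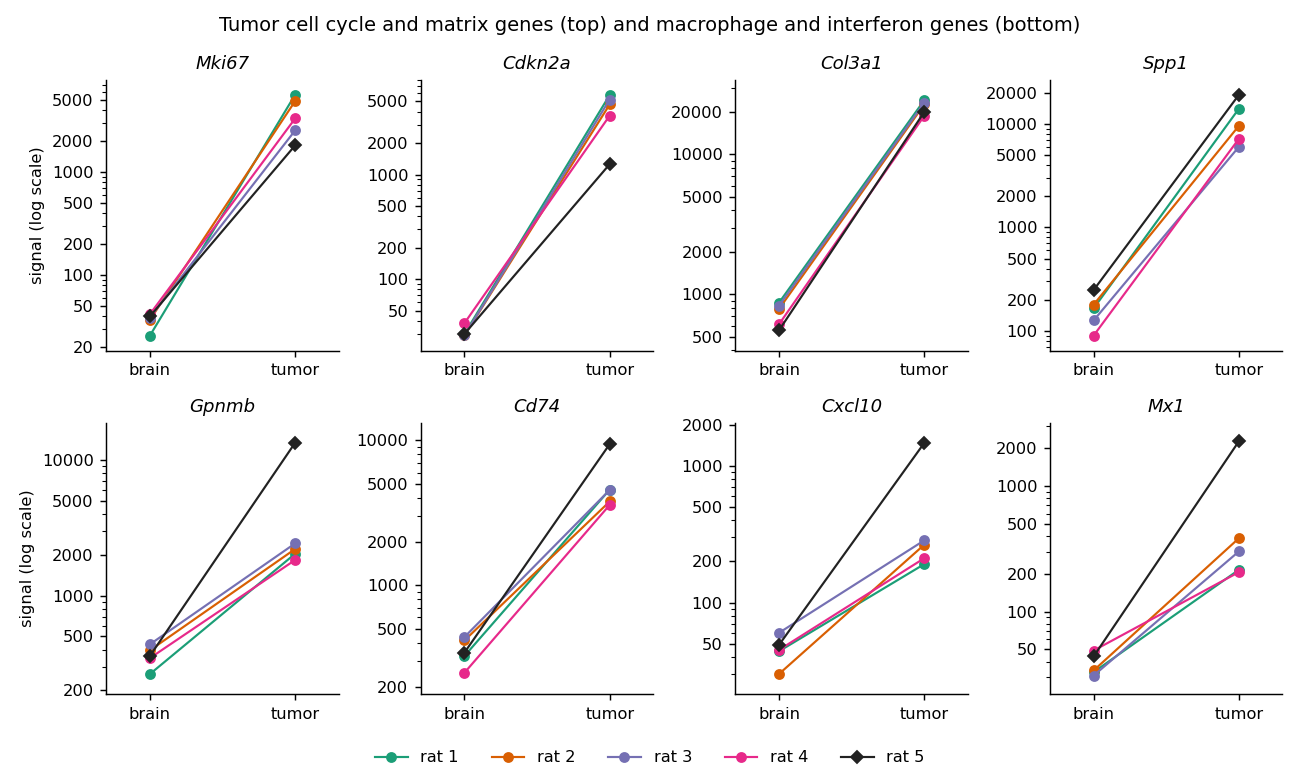
Array signal (log axis) in contralateral brain and tumor of each of 5 rats, joined by a line, for 4 genes of division and matrix (top) and 4 of macrophages and interferon (bottom). Rat 5 (black diamonds) has the lowest tumor signal of Mki67 and Cdkn2a and the highest of Spp1, Gpnmb, Cd74, Cxcl10 and Mx1.

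Of 26 endothelial and angiogenic genes 13 were higher and 2 lower (median 0.29), and 3 were called higher with the labelling control gap as a covariate. Esm1, a proteoglycan of sprouting tips, had brain signals of 19, 31, 32, 31 and 24 and tumor signals of 427, 559, 436, 244 and 257 (3.77 ± 0.21). Cdh5, the cadherin of all endothelium, rose from 339 to 439 in brain to 732 to 1289 in tumor (1.42 ± 0.13), and Angpt2, which loosens vessels, by 1.55 ± 0.23. Of 15 barrier genes 4 were higher (26.7%) and 5 lower (33.3%), close to the shares of all genes (30.3% and 28.3%). Slc22a8 and Slco1c1, an organic anion and a thyroid hormone carrier of the barrier, differed by −1.61 ± 0.24 and −0.90 ± 0.19, while Lef1, a Wnt effector of barrier endothelium and of many dividing cells, was higher (1.68 ± 0.17). Vtn, vitronectin, a marker of brain pericytes, was lower (−1.05 ± 0.14).

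Each rat had its own profile across the lists. The median over the mitosis list was 4.84, 4.36, 4.28, 3.93 and 3.19 in rats 1 to 5, and over the neuronal list −1.54, −1.10, −1.11, −0.81 and −0.44. Rat 1, with the most division signal, also had the lowest neuronal signal, and rat 5 the reverse. Chemokines set rat 5 apart most, with a median of 1.70 against −0.05 to 0.35. In the tumor of rat 5 neuronal and macrophage signals were the highest and division signals the lowest of the 5, and their part in one another's values was not tested. Without rat 5, 7450 probesets were higher and 9481 lower.

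**Figure D5:**
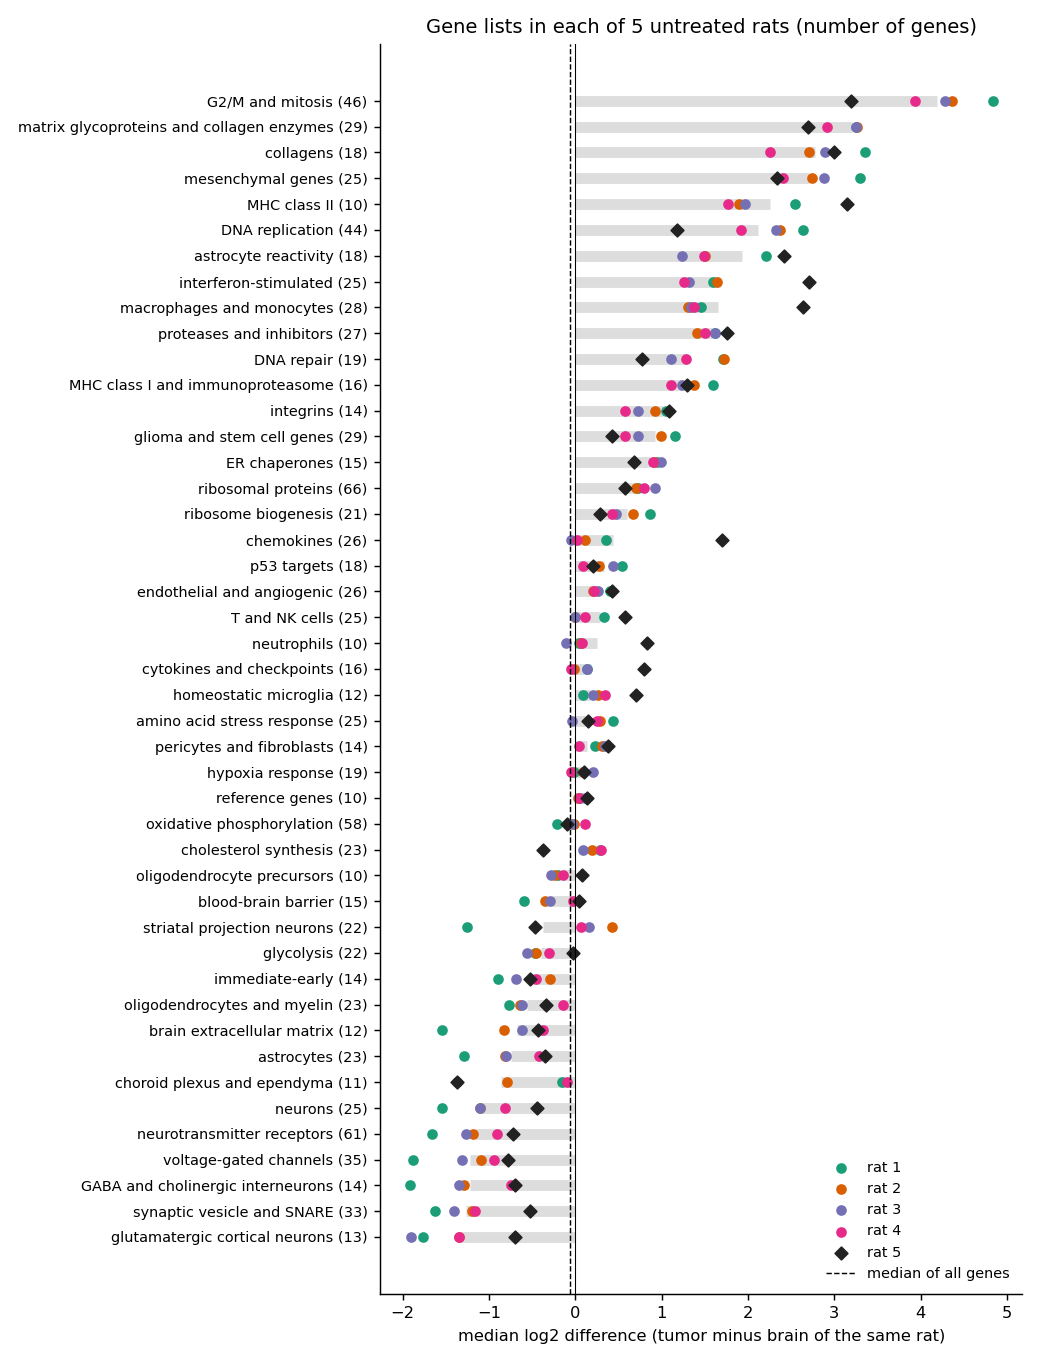
Median log2 difference between tumor and contralateral brain of the same rat over each gene list with 10 or more genes, 1 point per rat (rat 5 as a diamond), with a gray bar to the median of the fitted differences and a dashed line at the median of all genes (−0.06). Mitosis, matrix and mesenchymal lists lie highest and cortical and synaptic lists lowest, and rat 5 stands apart to the right in chemokine, macrophage and interferon lists.

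The study's reference genes were even between the tissues. The study chose them from its array data for their low variation across samples, so this evenness follows from the choice. Atp5f1b, the beta subunit of ATP synthase, had 16227 to 20751 in brain and 16130 to 19785 in tumor (−0.05 ± 0.09), and Arpc1a, a subunit of the Arp2/3 complex, 4791 to 5601 and 4900 to 5559 (−0.01 ± 0.09). Under cyclic loess their signs turned (0.04 and 0.07), with neither called. Of 10 common reference genes 3 were higher and 1 lower. Gusb, a lysosomal glucuronidase, had 343 to 426 in brain and 1321 to 2083 in tumor (2.23 ± 0.12), Actb differed by 0.35 ± 0.10 and Sdha by −0.62 ± 0.12.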

How the data were processed

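RNA from tumor and contralateral micropunches was read on rat expression arrays, 1 array per tissue and rat. Per the labels and the submitters' processing notes, the authors deposited signal intensity values made with RMA in Affymetrix Expression Console (versions not given in the sources used here), which corrects background and normalizes across arrays. The deposited intensities were linear (10 to 36564) and were taken to log2 without a pseudocount. A second table held equal values in 22 of 22 columns, and 0 columns of no sample were used. Of 31099 probesets 57 controls were left out.

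Differences were tested with limma 3.58.1 in R 4.3.3 (lmFit and eBayes, 4 residual degrees of freedom), rat as a fixed block, with Benjamini-Hochberg adjustment over 31042 probesets. The block follows from tumor and brain coming from the same animal, and deviations of same-rat arrays correlated at 0.097 to 0.378 (highest with another rat 0.059 to 0.278, above the same-rat value for rat 1). The number of arrays limits the precision. Tables and figures used Python 3.11.15, pandas 2.3.3 and matplotlib 3.10.9. The fit was tested on simulated data.

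Symbols were updated through RefSeq: of 19546 probesets with 1 symbol, 15456 matched by symbol, 2538 by accession and 760 by synonym, and 792 kept theirs. Promoters are the 250 bases before the start (RefSeq, GRCr8). Named genes were taken from the 12 largest differences each way, up to 4 members of a list in its direction and 2 against it, the reference and glioma lists, and the largest differences of the gap between irradiated and untreated rats. The genes outside this rule are marked in the text, and of 254 probesets that met it 127 are named, the others being counted in their lists only or not reported here. The members and the 47 lists were chosen with earlier results of these data known. Alternatives changed the block, floor, filter, scaling, variance model, probeset summary and rats.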

Additional observations from a re-analysis of the deposited data

Results flagged for a closer look

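In 32 of 270 groups of 5 arrays (135 probesets in each tissue) 1 array lay far from the other 4 by Dixon's criterion. Chance alone meets it in about 1 in 20 groups of independent values. These probesets were named partly by their values and were read on the same 10 arrays, so the count of 32 is no measure of excess. The tumor of rat 5 accounted for 17 of the 32. It was the bright array for Lgals3 (10642, others up to 2615), Gpnmb (13359, others up to 2423), Cd74 (9422, others up to 4572), Cxcl10 (1473, others up to 285), Mx1 (2261, others up to 383) and Isg15 (4940, others up to 1659). It was also the bright tumor for P2ry12 (810), Cx3cr1 (468) and Cd3g (242), and for the brain genes Gabra4 (492) and Spock2 (1342), for Cdh11 (2026) and for the barrier carrier Slc22a8 (423). It was the dim tumor for Etv1 (6687), S100a4 (20389), Nes (319) and Angpt2 (172).

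The tumor of rat 1 was low for the glial genes Agt (188, others from 465), Opalin (327, others from 904) and Gpr37 (1164, others from 2460), and for Prom1 (355, others from 608). Among the brains, rat 1 was low for Mki67 (26), Gpr37 (3587) and Sostdc1 (69), rat 2 was high for Neurod1 (1612), and rat 4 was high for Cdkn2a (38). The brain of rat 3 was high for Cdk4 (1375), Cyp46a1 (5510) and Cdh5 (439), and low for Lox (36), Pdia6 (2877) and Kif20a (267). Of these, the values of Mki67, Cdkn2a and Lox lie below the signal of 58.

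For 19 named genes the difference of tumor minus brain was not the same in the 6 irradiated rats as in the 5 untreated rats, by the interaction contrast in limma with adjusted p under 0.05, which called 205 of all probesets (0.66%). The 4 largest of these differences in each direction were named by that contrast itself. The count of 19 is therefore no measure of excess over all probesets. The difference was lower in the irradiated rats for 14 of the 19 genes. On the log2 scale the gap differed by −4.74 for Gbp2, −4.42 for Ccl2, −4.13 for Timp1 and −3.85 for Cxcl10. It differed by −2.58 for both Psmb9 and Cks2, by −2.40 for RT1-Da, −2.26 for Ifitm3, −2.04 for Cd74 and −2.02 for Isg15. The other 4 were Psmb8 (−1.52), Angpt2 (−1.46), S100a11 (−1.37) and Adm (−1.19). It was higher in the irradiated rats for Trib3 (2.18), Abcb1a (2.12), Areg (1.8), Inhbe (1.64) and Apln (0.96), of which Trib3, Areg and Inhbe were higher and Apln lower in the tumors of untreated rats (2.06 ± 0.20, 1.69 ± 0.20, 1.71 ± 0.26 and −0.43 ± 0.13), and Abcb1a was not called there (−0.33 ± 0.13).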

How the results depend on the processing

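Without the rat as a block, that is with no pairing, 6823 probesets were higher and 9102 lower, and with the rat as a random block 7076 and 9689. Leaving out 1 rat at a time gave 5711 to 7450 higher, 6768 to 9481 lower, 2708 to 3268 higher by over 2-fold and 1962 to 3104 lower by over 2-fold, and 138 to 292 probesets whose gap differed in irradiated rats. With the labelling control gap as a covariate, 1293 were higher and 478 lower, and each of these passed 2-fold. At an adjusted p under 0.01, 5976 were lower. Rats 1 and 5, which had the smaller labelling control gap in both tissues, were also tested alone, an alternative chosen after seeing the data. They gave 0 calls in every count with 1 pair to spare for the spread (3705 higher and 4523 lower at an unadjusted p under 0.05). Of the 15941 calls, 99.9% kept their sign, but these rats are among the 5 that gave the calls, so this is no independent support. Rats 2, 3 and 4 alone gave 7343 probesets higher and 10141 lower. Cyclic loess moved the median difference from −0.12 to −0.01 and the share of calls that were higher from 43.7% to 52.5%, and the gap covariate moved that share to 73.0%.

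Of 125 called results for named genes, 61 were still called with the gap covariate and 119 to 125 under the other alternatives run on all of them. Signs turned with the gap covariate for Nrgn (0.10), Arpc1a (0.02), Drd1 (−2.16, adjusted p = 0.038, limma), Drd2 (−1.35), Adora2a (−0.97), P2ry12 (1.5) and Cx3cr1 (0.88). They turned with the mean of a gene's probesets for Gja1 (−0.35) and Kif20a (2.63). They turned under cyclic loess for Atp5f1b (0.04), Arpc1a (0.07) and Cx3cr1 (0.06), and under scaling on Atp5f1b and Arpc1a for Arpc1a (0.02) and Cx3cr1 (0.02). Without rat 2 the signs of Drd1 (−0.04), Drd2 (−0.08) and Cx3cr1 (0.04) turned, without rat 3 or 4 that of Cx3cr1 (0.12 and 0.05), and without rat 5 that of Kif20a (0.01). With 1 rat left out at a time Drd1 ranged from −0.04 to 0.60, Drd2 from −0.08 to 0.46, Cx3cr1 from −0.20 to 0.12 and Kif20a from −0.19 to 0.01. The cause was not tested. Arpp21, Sostdc1, Actb, Snap25 and Apln lost their call without at least 1 rat, Actb without rat 2 and Apln without rat 1 or 4. Leaving out a rat moved the count of glycolysis genes lower from 11 to 6 (rat 2 or 3), of choroid plexus genes from 6 to 3 (rat 3), and of neutrophil genes higher from 3 to 1 (rat 2, 3 or 5). The precision is limited by 5 rats and, for genes near background in brain, by signals that give no detection call.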

Other observations

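Genes of protein synthesis were higher in tumor. Of 66 ribosomal protein genes 65 were higher and 0 lower, with a median of 0.73, and Rplp0 and Rpl22, proteins of the large subunit, differed by 1.53 ± 0.11 and 1.4 ± 0.13. Of 21 ribosome biogenesis genes 17 were higher, led by Nop58 of the nucleolus (1.92 ± 0.17). With the labelling control gap as a covariate, 2 ribosomal protein genes and 0 biogenesis genes were called higher. Of 15 endoplasmic reticulum chaperone genes 9 were higher and 1 lower (median 0.87), with Pdia6, a disulfide isomerase, at 2.21 ± 0.11, and Ddit3, a stress transcription factor, differed by 2.54 ± 0.16. Of 22 glycolysis genes 3 were higher and 11 lower, and 0 were called lower with that covariate. Hk2, a hexokinase of tumors and muscle, had signals of 188 to 235 in brain and 464 to 832 in tumor (1.54 ± 0.16), and Aldoc, the aldolase of brain, 12190 to 16522 and 4819 to 11215 (−0.83 ± 0.17). Of 19 hypoxia genes 7 were higher (36.8%) and 6 lower (31.6%), close to the shares of all genes (30.3% and 28.3%), with Adm, a vessel-dilating peptide, at 1.71 ± 0.11 and Car12, a carbonic anhydrase, at −1.48 ± 0.30. Of 58 oxidative phosphorylation genes 4 were higher and 7 lower (median −0.02). Of 23 cholesterol genes 7 were higher (30.4%, against 30.3% of all genes) and 2 lower (8.7%, against 28.3%), with a median of −0.02. Ebp of the synthesis pathway was among those higher (1.21 ± 0.15). Cyp46a1, the neuronal enzyme that clears cholesterol from brain, was among those lower (−1.67 ± 0.20).

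Of 14 immediate-early genes 8 were lower and 2 higher, and 1 was called lower with the labelling control gap as a covariate. Nr4a3, a nuclear receptor induced by neuronal activity, differed by −1.67 ± 0.14, while Ier2 and Jun, also induced by growth factors, differed by 1.94 ± 0.18 and 1.48 ± 0.13. Of 11 choroid plexus and ependyma genes 6 were lower and 1 higher, and 0 were called lower with that covariate. Sostdc1, a secreted protein of the choroid plexus, had brain signals of 69, 2621, 2421, 1087 and 1828 and tumor signals of 53, 1043, 61, 1201 and 58, so that it was bright in some punches of either tissue and near background in others (−2.37 ± 0.83, adjusted p = 0.042, limma). It was not called without rat 2, 3 or 5, without the rat as a block or with the rat as a random block. Its call was also lost under cyclic loess and with signals under 58 set to 58. Aqp1, a water channel of the choroid plexus that many tumors also express, was higher, from 97 to 262 in brain to 809 to 2304 in tumor (3.22 ± 0.25).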
